A study of Mus musculus with 24 samples.

Results

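Lmo7, Lrrfip1, Myo18b, Coro6 and Limch1 are 5 genes whose proteins bind actin filaments or act on the actin-myosin network. They were picked from 20368 tested genes because their nuclear RNA was thought to be lower at postnatal day 14 (P14) than before, so the fall itself is described here without a test. In the deposited counts 4 of the 5 were lower at P14. Limch1 was not, and went against that grouping. All 5 passed the filter on low counts, and each had reads in all 15 kept libraries of P1 and P7.

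Nuclei of cardiomyocytes (CMs), sorted by the centriolar protein PCM1, came from hearts of C57BL/6N mice of either sex at P1, P7 and P14. Control mice, XMLC2(-)Casp2(fl/fl), carried the floxed Casp2 alleles without Cre. Casp2-depleted mice, XMLC2(+)Casp2(fl/fl), carried the same alleles and a Cre driven by the cardiomyocyte promoter XMLC2, so both genotypes shared the floxed allele and a Cre-only control was not analysed here. Each of the 24 libraries (4 per day and genotype) is a pool of 15 hearts at P1, 6 at P7 or 2 at P14. The study set aside 3 libraries for low quality (replicate 1 of the P1 controls, replicate 3 of the P14 controls and replicate 1 of the P14 Casp2-depleted group), which left 3 or 4 per group and 21 in all. Casp2 itself could not check the genotypes: it had 9 reads in the 4 P7 control libraries, 8 in the 4 P7 Casp2-depleted libraries, and 0 at P1 and P14.

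In the heart, actin filaments are built into the thin filaments of the sarcomere and also form a cortical and junctional network that holds cells together at the intercalated disc. Assembly and turnover of both pools depend on proteins that cross-link, cap, sever or nucleate filaments, and on non-muscle myosins that pull on them. After birth CMs stop dividing, grow, and reorganise sarcomeres and cell contacts. Lmo7 is a LIM and calponin-homology domain protein found at adherens junctions and in the nucleus, where it binds emerin. Limch1 carries the same pair of domains and binds non-muscle myosin II. Lrrfip1 binds Flightless-1, an actin-severing protein of the gelsolin family. Myo18b is an unconventional myosin of striated muscle needed for sarcomere assembly. Coro6 belongs to the coronins, WD-repeat proteins that bind filament sides and the Arp2/3 complex.

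On GRCm39 Lmo7 (ENSMUSG00000033060) lies at chr14:101967150-102172147 on the plus strand, Lrrfip1 (ENSMUSG00000026305) at chr1:90926445-91058477 on the plus strand and Myo18b (ENSMUSG00000072720) at chr5:112836741-113044304 on the minus strand. Coro6 (ENSMUSG00000020836) lies at chr11:77351342-77361327 and Limch1 (ENSMUSG00000037736) at chr5:66902766-67214502, both on the plus strand. Reads were counted over exons and introns together. Limch1, Myo18b, Lmo7 and Lrrfip1 span 311737, 207564, 204998 and 132033 bases, against a median of 19281 for protein-coding genes, and Coro6 spans 9986. The 3′ end of Coro6 overlaps Ankrd13b on the opposite strand. Ankrd13b had 375 reads in the 24 libraries, and since counting by strand was not stated, reads in that overlap cannot be assigned to either gene.

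Because 4 of these genes shared a time course and 1 did not, their promoters are shown next to each other. RefSeq windows (GRCm38.p6, 250 bases before to 50 after a transcript start) were found for 4 of the 5 genes, with 9 windows in all. They were searched on both strands for the CArG box bound by SRF, the MEF2 site, the M-CAT element CATTCC bound by TEAD factors, GATAA and the E-box CANNTG. Capitals mark matches to the CArG box, the MEF2 site or the M-CAT element.

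Lmo7, inner of 2 windows, chr14:101840373-101840672, plus strand: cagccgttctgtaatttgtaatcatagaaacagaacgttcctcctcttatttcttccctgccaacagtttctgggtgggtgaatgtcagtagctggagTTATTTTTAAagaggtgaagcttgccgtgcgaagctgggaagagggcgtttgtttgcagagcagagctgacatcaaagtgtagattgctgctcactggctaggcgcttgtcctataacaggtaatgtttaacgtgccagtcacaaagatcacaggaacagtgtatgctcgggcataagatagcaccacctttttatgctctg
Limch1, outermost of 3 windows, chr5:66745639-66745938, plus strand: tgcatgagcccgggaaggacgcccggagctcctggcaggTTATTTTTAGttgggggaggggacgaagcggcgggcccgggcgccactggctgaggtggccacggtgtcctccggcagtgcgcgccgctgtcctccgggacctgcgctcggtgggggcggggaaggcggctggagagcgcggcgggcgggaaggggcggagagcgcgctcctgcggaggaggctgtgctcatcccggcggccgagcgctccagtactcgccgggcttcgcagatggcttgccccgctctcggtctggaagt
Coro6, outermost of 2 windows, chr11:77462330-77462629, plus strand: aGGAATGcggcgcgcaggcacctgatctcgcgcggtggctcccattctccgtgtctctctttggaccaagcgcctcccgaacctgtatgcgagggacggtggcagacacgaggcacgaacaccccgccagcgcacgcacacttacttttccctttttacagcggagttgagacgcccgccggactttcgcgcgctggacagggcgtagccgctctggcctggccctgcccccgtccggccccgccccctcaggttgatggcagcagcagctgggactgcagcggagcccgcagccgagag
Lrrfip1, outermost of 2 windows, chr1:90998477-90998776, plus strand: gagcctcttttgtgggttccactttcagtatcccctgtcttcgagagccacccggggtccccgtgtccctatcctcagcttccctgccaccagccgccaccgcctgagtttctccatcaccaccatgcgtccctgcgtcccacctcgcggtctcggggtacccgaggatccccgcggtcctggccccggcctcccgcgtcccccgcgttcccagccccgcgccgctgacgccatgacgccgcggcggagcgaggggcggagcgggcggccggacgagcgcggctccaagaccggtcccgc

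The Lmo7 window held a MEF2 site 152 to 143 bases before the start, and the Limch1 window held one at 211 to 202 bases before it. Lmo7 and Limch1, which share this match, had different time courses. A MEF2 site was found in 3.19% of the 32851 windows of all genes. That share is per window, whereas Lmo7 had 2 windows and Limch1 3, and their windows not shown held no MEF2 site. Coro6 held an M-CAT element 249 to 244 bases before its start, as did 14.7% of all windows somewhere. The Lrrfip1 window held none of the 5 motifs, and no window of these genes held a CArG box, found in 1.63% of all windows. E-boxes and GATAA were common, in 72.3% and 25.4% of all windows. These matches describe the letters of the windows, and binding was not measured.

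The 21 libraries held 891817 to 2924097 reads on genes, and 7628 to 17770 genes had a read. The P14 libraries held 891817 to 1278961 reads. A count of 0 in a library of that depth allows at most 2.35 to 3.36 CPM (3 reads of its total, where CPM is reads scaled to a common library size). Such limits cover counting error, since no molecular identifiers were stated. The share of uniquely placed reads that fell on no gene was 36.8 to 73.9% at P1, 34.3 to 64.3% at P7 and 63.7 to 76.1% at P14. The 10 cardiomyocyte markers all had reads in every group. Their summed level was 24702 to 85514 CPM at P1, 50447 to 94910 at P7 and 13963 to 51003 at P14, so it moved with day as well. Summed fibroblast markers (8 genes) reached at most 379 CPM, mural markers (6) 520, macrophage markers (6) 303, erythroid markers (5) 110 and endothelial markers (7) 999. Fibroblast markers were at 174 to 379 CPM at P14 and at 78.9 to 213 at P7. In Casp2-depleted CMs endothelial markers were at 499 to 630 CPM at P14 and at 141 to 424 at P7, without overlap, and mural markers at 146 to 276 and 273 to 479. In controls endothelial markers were at 49.3 to 999 CPM at P14 and 102.9 to 299 at P7, and mural markers at 50.8 to 428 and 199.9 to 372. Egfl7 and Cd68 were at 0 in all groups, Ptprc was at 0 at P14, and Cdh5 and Kdr were at 0 in P14 Casp2-depleted CMs. The part of these marker levels in the results below was not tested.

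Lmo7, the junctional LIM protein, was high at P7 and low at P14. Its levels are given as CPM scaled by TMM factors, which adjust each library for its composition. Controls at P7 had 4033, 6531, 4216 and 4169 CPM (mean 4737 ± 1198, SD, n = 4), and at P14 they had 657, 252 and 534 CPM (481 ± 208, n = 3). Casp2-depleted libraries had 4109, 4001, 4625 and 1811 CPM at P7 (3636 ± 1247, n = 4) and 344, 178 and 209 CPM at P14 (244 ± 88.4, n = 3). Every P14 library lay below every P7 library of its genotype, by 9.85-fold between the means of controls and 14.9-fold in Casp2-depleted CMs. P1 libraries were widely spread, with 585, 2060.2 and 3265 CPM in controls and 1605, 662, 1314 and 5034 CPM in Casp2-depleted CMs. The means ran in the order P7 control, P7 Casp2-depleted, P1 Casp2-depleted, P1 control, P14 control and P14 Casp2-depleted, and each pair of neighbours overlapped.

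Lrrfip1, the Flightless-1 partner, followed the same order of days. At P7 it had 2959, 4539, 3097 and 2602 CPM in controls and 3526, 4085, 3679.8 and 2243 CPM in Casp2-depleted CMs. At P14 it had 382, 180.0 and 416 CPM in controls (mean 326 ± 128, SD, n = 3) and 188, 82.6 and 290.3 CPM in Casp2-depleted CMs (187 ± 104, n = 3). The P14 and P7 libraries did not overlap in either genotype, and the means differed by 10.1-fold and 18.1-fold. P1 controls had 686, 2021 and 2470.1 CPM and P1 Casp2-depleted libraries 2207, 889.7, 1089 and 4282 CPM. These 7 libraries all lay above the P14 libraries of both genotypes.

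Myo18b, the muscle myosin, showed the same fall. Controls had 644, 1599.6, 1340.5 and 1038 CPM at P7 and 169.7, 54.0 and 25.1 CPM at P14. Casp2-depleted libraries had 853, 1575, 1425 and 737 CPM at P7 and 99.4, 83.8 and 55.0 CPM at P14. P7 and P14 were separate in both genotypes, by 13.9-fold in controls and 14.4-fold in Casp2-depleted CMs. At P1 the levels were 306, 774 and 818 CPM in controls and 457, 352, 658 and 1414 CPM in Casp2-depleted CMs. Each P1 library lay above each P14 library of both genotypes.

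Coro6, the coronin, was the lowest in reads. It had 242, 274, 219.9 and 155 CPM in P7 controls and 264, 79.3, 140.3 and 47.8 CPM in P7 Casp2-depleted CMs. P1 controls had 24.7, 88.0 and 10.3 CPM, and P1 Casp2-depleted libraries 53.3, 4.91, 18.3 and 221 CPM. All 6 kept P14 libraries had 0 reads, where the P7 groups summed to 1386 and 938 reads. The floor was set at 3 reads over a P14 group, on the TMM scale of the kept libraries. Against it, the P14 level was at least 302-fold lower than P7 in controls and at least 201-fold lower in Casp2-depleted CMs. These limits hold only for that scale and those libraries. The low-quality P14 Casp2-depleted replicate 1, left out above, held 141 Coro6 reads (97.8 CPM of reads on genes, with no TMM factor), which is inside the P7 range, and P14 control replicate 3 held 0. With all 24 libraries the fitted log2 difference of P14 from P7 in Casp2-depleted CMs was -2.94 (SE 1.34).

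Limch1, the other LIM and calponin-homology protein, did not fall from P7 to P14. Controls had 795, 1305, 594 and 819 CPM at P7 (mean 878 ± 302, SD, n = 4) and 1059.6, 603 and 736 CPM at P14 (799 ± 235, n = 3). Casp2-depleted CMs had 958, 839.6, 607 and 512 CPM at P7 (729 ± 205, n = 4) and 799.6, 389.6 and 691 CPM at P14 (627 ± 212, n = 3). P7 and P14 overlapped in both genotypes, with fitted log2 differences of -0.14 (SE 0.47) and -0.22 (SE 0.47). The sign depended on the scaling: the differences were 0.15 and 0.16 with median-ratio size factors, and 0.67 and 0.59 as CPM of reads on genes with no TMM factor. P1 was the low day, with 253, 258 and 149 CPM in controls and 406, 276, 102 and 157 CPM in Casp2-depleted CMs. The control P14 libraries all lay above the P1 controls, whereas in Casp2-depleted CMs the lowest P14 library was below the highest P1 library.

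**Figure D1:**
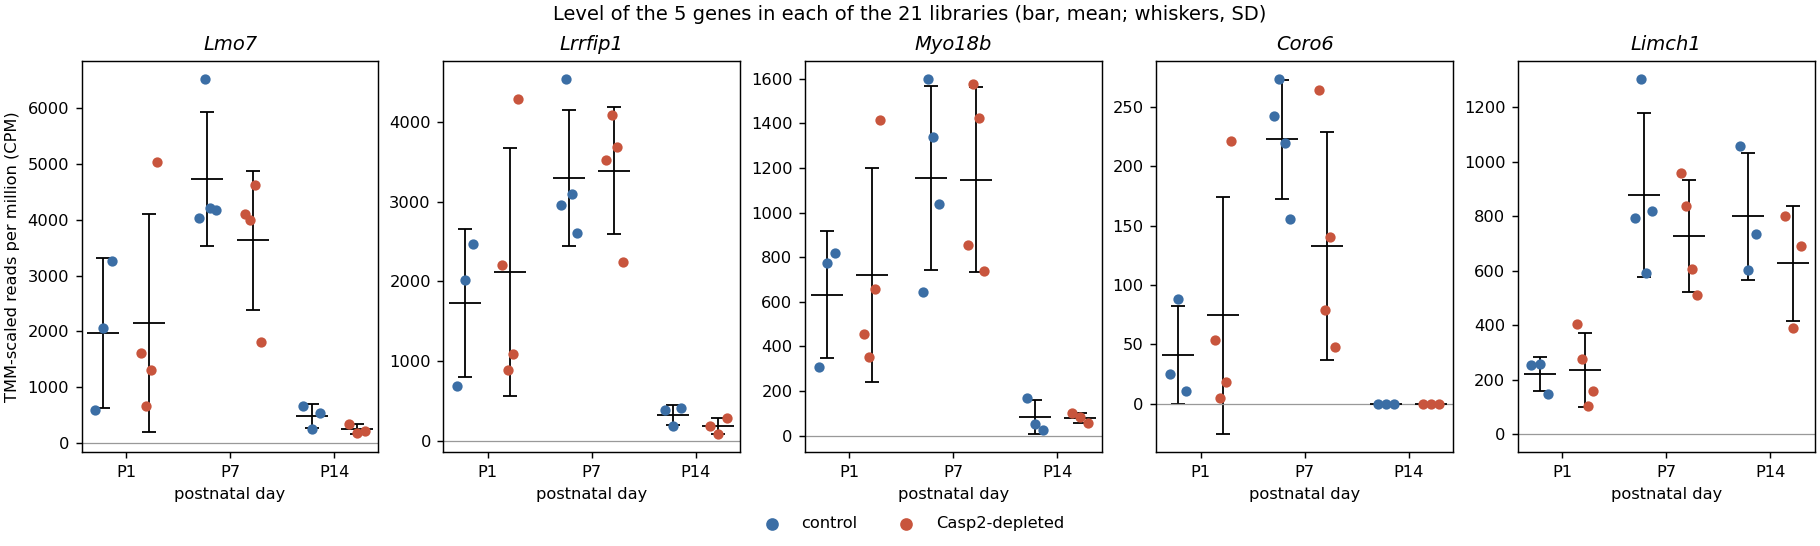
Level of each gene (y axis, TMM-scaled CPM, linear and different per panel) by postnatal day (x axis) in controls (blue) and Casp2-depleted CMs (red); points are libraries, horizontal bars means and whiskers SD. P14 points of Lmo7, Lrrfip1, Myo18b and Coro6 lie below all P7 points of their genotype, whereas Limch1 is as high at P14 as at P7 and lowest at P1.

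In pooled sorted nuclei, less of an RNA in each nucleus and fewer nuclei that hold it cannot be told apart. Across the whole table, edgeR's quasi-likelihood test (adjusted p below 0.05 and a log2 change beyond 1) called 1.87% of genes lower at P14 than P7 in controls and 2.82% in Casp2-depleted CMs. Against P1 it called 0.314% and 1.92% lower. Nothing is read from the place of the 5 genes among these, since they were chosen on that fall. Very few genes were called higher at P14 (2 in each genotype against P7).

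The median fitted log2 change of all 20368 genes from P7 to P14 was -0.75 in controls and -0.61 in Casp2-depleted CMs, and -0.52 and -0.26 with median-ratio size factors.

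The size of the fall depended on how libraries were scaled and on which were used. TMM factors were larger at P14 than at P7 in every library, and without them the log2 ratio of P14 to P7 for Lmo7 was -2.50 in controls and -3.11 in Casp2-depleted CMs, against -3.30 and -3.90 with them. Lrrfip1 moved from -3.34 and -4.18 to -2.51 and -3.34, and Myo18b from -3.80 and -3.85 to -3.10 and -3.07. In a fit that held the percentage of reads outside genes as a covariate, the fitted log2 differences were -2.02 and -2.60 for Lmo7, -2.18 and -3.03 for Lrrfip1, and -3.09 and -3.06 for Myo18b. With all 24 libraries the log2 difference of Myo18b in controls was -1.83. P14 control replicate 3 held 997 CPM of Myo18b with no TMM factor, within the kept P7 control range of 539 to 1066. In that fit 2 of the 5 genes, Lmo7 and Lrrfip1, had every P14 library below every P7 library in both genotypes, against 4 of 5 in the 21 libraries. The share of all tested genes with such a separation was not computed. Nothing is read from these counts, since the genes were chosen for the fall.

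The 5 genes together took 0.107 to 0.253% of the reads on genes in the 6 kept P14 libraries, 0.524 to 0.904% at P7 and 0.248 to 0.815% at P1. Among the kept P1 libraries, the one with the largest share (Casp2-depleted replicate 4, 0.815%) had the lowest share of reads on no gene (36.8%). The kept P1 library with the smallest share (control replicate 2, 0.248%) had the highest, 73.9%. The left-out P1 control replicate 1 had 0.579% of its reads in the 5 genes and 9.21% on no gene. Beyond the covariate fit above, the part of this read share in the levels was not tested.

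**Figure D2:**
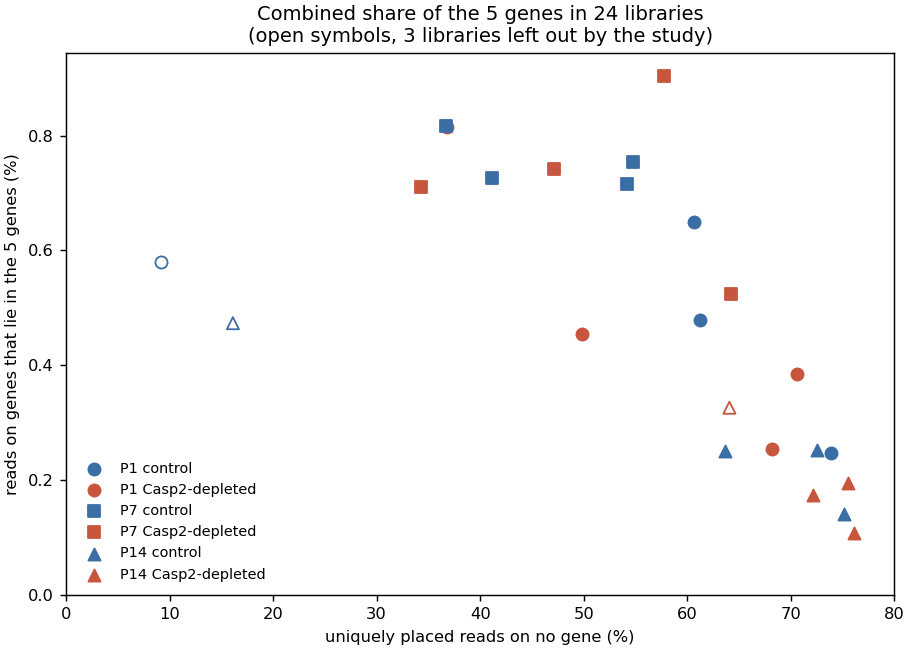
Share of reads on genes that lie in the 5 genes (y axis, %) against the share of uniquely placed reads that fell on no gene (x axis, %) in 24 libraries; circles are P1, squares P7, triangles P14, blue control, red Casp2-depleted, and open symbols the 3 libraries left out. The kept P14 libraries sit at 63.7% or more on the x axis and 0.253% or less on the y axis, and the 8 P7 libraries at 0.524% or more on the y axis.

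The rise from P1 to P7 was a comparison that the choice of genes did not name. The libraries of both earlier days entered that choice too, and choosing for a fall to P14 favours high P7 levels. No member was called by edgeR. All 5 had higher means at P7 in both genotypes. In controls Limch1 had the smallest adjusted p, with a log2 difference of 1.99 (SE 0.50, 95% interval 1.01 to 2.98, adjusted p = 0.152 by edgeR), and all 4 P7 controls lay above the 3 P1 controls. Lmo7 differed by 1.27 (SE 0.38, edgeR adjusted p = 0.619) and Coro6 by 2.44 (SE 0.95, adjusted p = 0.626). Lrrfip1 differed by 0.93 (SE 0.38) and Myo18b by 0.87 (SE 0.46). These sizes in controls depended on the percentage of reads outside genes. With it as a covariate they were 0.38 for Lmo7, 0.92 for Coro6, 0.12 for Lrrfip1 and 0.31 for Myo18b. Limch1 had the largest difference of the 5 in that fit, and all 5 stayed above 0. Without the covariate, unadjusted edgeR p-values were below 0.05 for 4 of 5 genes in controls and for 2 of 5 in Casp2-depleted CMs. The shares of all tested genes were 6.67% and 7.40%. Nothing is read from that difference, since the 5 were chosen on these libraries. The background of calls in either direction was 0.00982% in controls and 0.0196% in Casp2-depleted CMs, so few genes of any kind passed. DESeq2 called Limch1 in controls (log2 difference 1.85, adjusted p = 0.0136) and no other of the 5. limma-voom called 0.

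In Casp2-depleted CMs Limch1 was 1.63 higher at P7 (SE 0.45, interval 0.75 to 2.51, edgeR adjusted p = 0.672), and its P7 libraries all lay above its P1 libraries. Lmo7 was 0.76 higher (SE 0.34), Lrrfip1 0.68 (SE 0.35), Myo18b 0.67 (SE 0.42) and Coro6 0.83 (SE 0.81), with overlapping libraries. P1 Casp2-depleted replicate 4 was the highest library of its group for these 4 genes. Without it Lmo7 was called, at a log2 difference of 1.55 (edgeR adjusted p = 0.0127), and no other of the 5 was.

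Loss of Casp2 was compared with controls on each day. None of the 5 genes was called on any day by edgeR, DESeq2 or limma-voom in the 21 libraries. At P1 and P7 no gene of the whole table was called (0%) and no unadjusted p of the 5 was below 0.05. The P1 log2 differences were 0.13 for Lmo7 (interval -0.59 to 0.85), 0.29 for Lrrfip1 (-0.45 to 1.03), 0.19 for Myo18b (-0.71 to 1.08), 0.86 for Coro6 (-0.88 to 2.603) and 0.10 for Limch1 (-0.83 to 1.02). At P7 they were -0.38 for Lmo7 (-1.05 to 0.28), 0.04 for Lrrfip1 (-0.64 to 0.72), -0.01 for Myo18b (-0.84 to 0.82), -0.74 for Coro6 (-2.32 to 0.84) and -0.27 for Limch1 (-1.12 to 0.59). Coro6 had the widest interval on both days, and the libraries of the genotypes overlapped for each of the 5 genes.

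At P14, where 0.167% of all genes were called in either direction, Lmo7 was 0.98 lower in Casp2-depleted CMs (log2 -0.98, interval -1.76 to -0.20, unadjusted p = 0.0132 and adjusted p = 0.378 by edgeR). An unadjusted p below 0.05 was found for 2 of the 5 genes, Lmo7 and Lrrfip1, and for 12.8% of all tested genes. Casp2-depleted libraries had 344, 178 and 209 CPM and controls 657, 252 and 534 CPM, so 1 control lay inside the Casp2-depleted range. Lrrfip1 differed by -0.80 (-1.60 to -0.01, edgeR adjusted p = 0.389), also with overlapping libraries. Myo18b differed by -0.06 (-1.02 to 0.90) and Limch1 by -0.35 (-1.34 to 0.64). Coro6 had no reads in either genotype and gives no comparison. With all 24 libraries it was called higher in Casp2-depleted CMs, and the 141 reads behind that call lie in 1 library that the study left out. The P7 and P14 libraries of both genotypes also entered the choice of the 5 genes, so these genotype comparisons are not free of that choice. The P7 to P14 change was next compared between genotypes, in an interaction that called 0.0245% of all genes. It gave -0.60 for Lmo7 (-1.62 to 0.42), -0.84 for Lrrfip1 (-1.88 to 0.21), -0.05 for Myo18b (-1.32 to 1.21) and -0.08 for Limch1 (-1.39 to 1.22). None of these was called, and none had an unadjusted p below 0.05 with edgeR, DESeq2 or limma-voom.

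**Figure D3:**
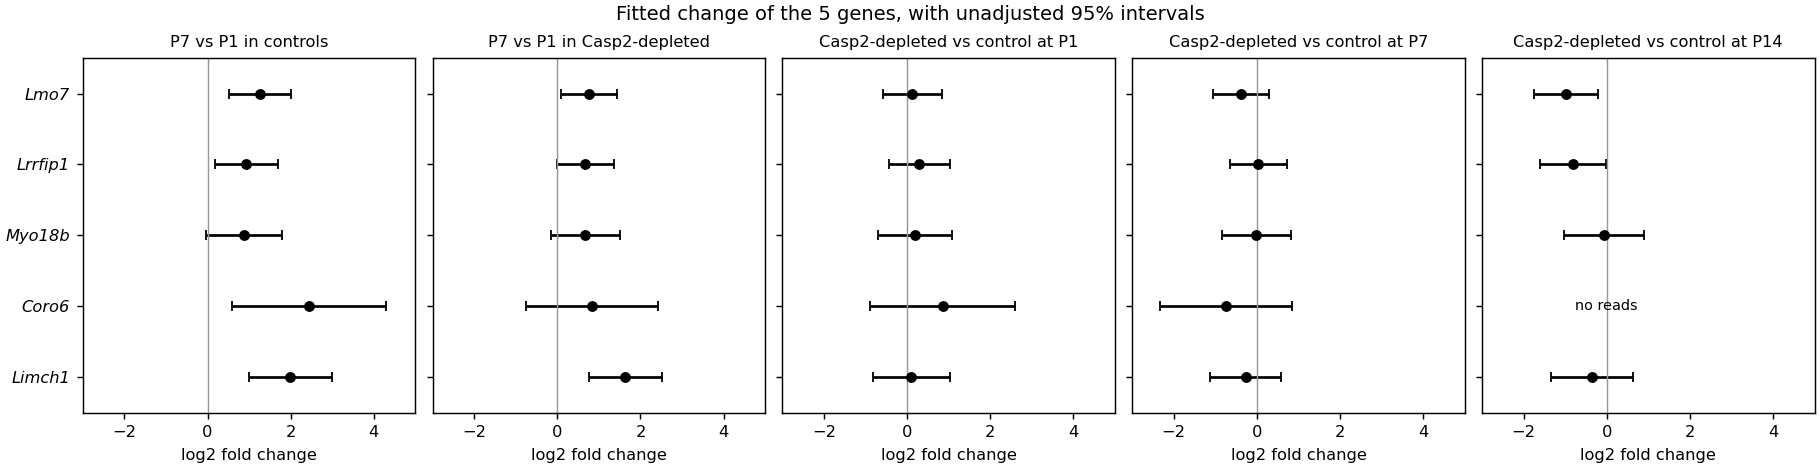
Fitted log2 fold change (x axis) of the 5 genes (rows) for P7 against P1 in each genotype and for Casp2-depleted against control CMs on each day; points are edgeR estimates and bars unadjusted 95% intervals. All P7 against P1 estimates are above 0, and the genotype estimates lie within 1 log2 unit of 0, with Coro6 not shown at P14 because it had no reads.

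The 4 falling genes had been chosen for a fall by P14, so a shared profile over the days follows from that choice. Pearson's r between their log2 CPM over the 21 libraries, which share days and depths, was 0.90 to 0.97. After each group's mean was taken out it was lower for every pair. It was 0.88 for Lmo7 with Lrrfip1, 0.69 for Lmo7 with Myo18b and 0.58 for Lmo7 with Coro6. For Lrrfip1 it was 0.55 with Coro6 and 0.47 with Myo18b, and for Myo18b with Coro6 it was 0.36. Limch1 had r of -0.14 to 0.03 with the other 4. Among 8231 genes with a mean of at least 20 CPM, the 10 closest to the mean standardised profile of the 5 were Fsaf1, Secisbp2, Fgf13, Phactr2, Ankrd1, Myom1, Clip1, Pnisr, Vegfa and Nexn (r from 0.942 to 0.957, where the 95th percentile of all searched genes was 0.817). Of these 10, 5 were also among the closest by Spearman's rho and 5 with all 24 libraries. Phactr2 is a phosphatase and actin regulator, Nexn (nexilin) a filamentous-actin-binding protein of the Z-disc, Myom1 the M-band protein myomesin and Ankrd1 a stress-responsive sarcomeric ankyrin-repeat protein. No such role is given here for Fsaf1, Secisbp2, Fgf13, Clip1, Pnisr and Vegfa, and whether the 10 are rich in actin or sarcomere genes was not tested.

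Nexn had a median of 5752 CPM in P7 controls (5078 to 9422) and 1464 CPM in P14 controls (231 to 2742). In Casp2-depleted CMs its median was 5181 CPM at P7 (3789 to 7948) and 444 CPM at P14 (286 to 812). Ankrd1 fell from a median of 4174 CPM (1399 to 10493) to 192 CPM (45.8 to 234) in controls. The P14 and P7 ranges of both genes were separate, but both were picked for likeness to genes chosen for a fall by P14. The genes most like Lmo7 alone were Son, Myh7b and Srrt (r from 0.963 to 0.975), and Son, a nuclear speckle protein, was also the closest to Lrrfip1 (r 0.974). Clip1 and Ehbp1l1 followed for Lrrfip1. Prpf38b, Acat1 and Ssrp1 were closest to Myo18b, and Wdr3, Nsd1 and Ptp4a3 to Coro6. The closest to Limch1 were Babam2, Nt5e and Gm31013, at a lower r of 0.769 to 0.806.

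**Figure D4:**
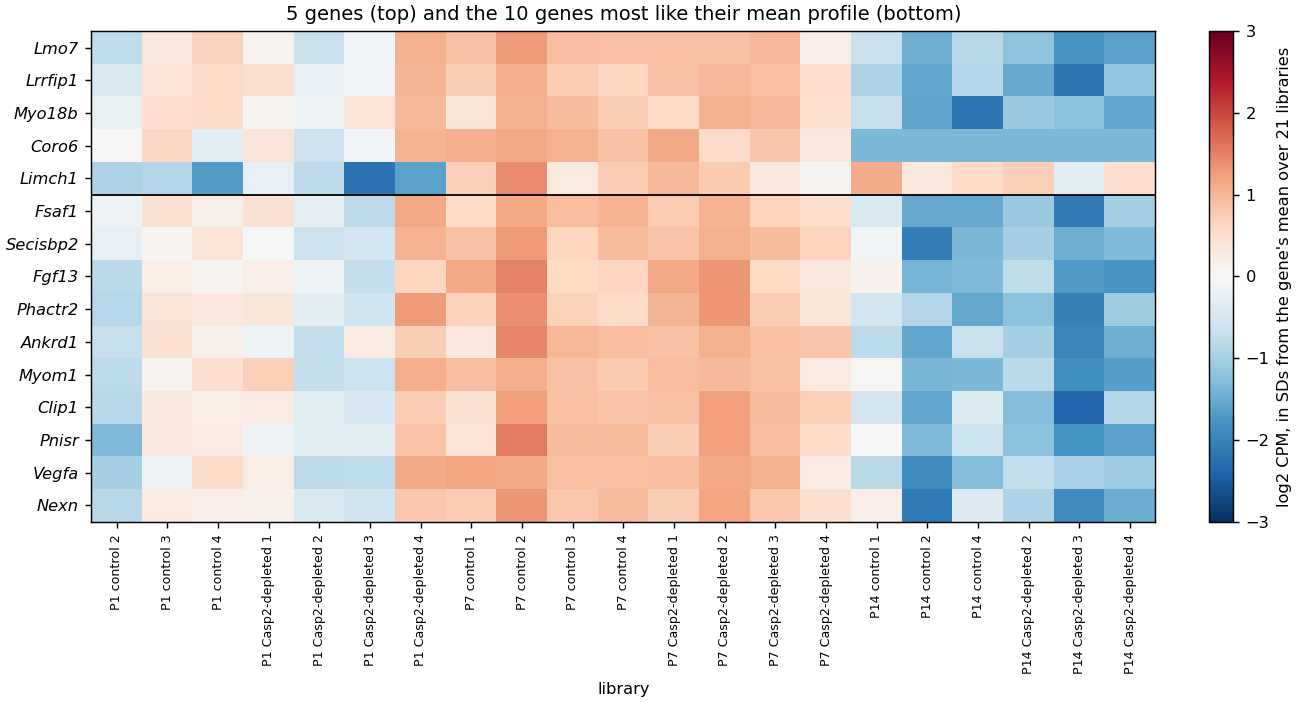
log2 CPM of the 5 genes (above the line) and of the 10 genes closest to their mean profile (below it), as SDs from each gene's mean, with the 21 libraries in columns by day and genotype; red is higher and blue lower. The P7 columns are red and the P14 columns mostly blue for all rows but Limch1, which is blue at P1 and mostly red from P7 on.

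A list of 196 other genes that bind or regulate actin, grouped by role, gave the wider setting, and 186 of them were tested. In controls 17 of 186 (9.14%) were called lower at P14 than at P7 and 0 higher, beside the 1.87% of all genes given above. In Casp2-depleted CMs 22 of 186 (11.8%) were called lower and 0 higher, beside 2.82%. Among genes with a mean of at least 20 CPM the shares were 13.4% and 17.3% of 127 actin genes, beside 4.53% and 6.80% of 8391 genes. The median fitted log2 change of these 127 was -1.13 in controls and -1.06 in Casp2-depleted CMs, beside -0.24 and -0.22 for all 8391. The list was drawn up with results of these data known.

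By role, 5 of 33 LIM-domain and calponin-homology binders, the class of Lmo7 and Limch1, were called lower in controls and 6 of 33 in Casp2-depleted CMs. Cross-linkers and scaffolds gave 4 and 6 of 30, and actin-MRTF-SRF signalling genes 3 and 3 of 12. No gene of the Arp2/3 complex (10), the coronins (4) or the monomer-binding proteins (4) was called by edgeR in either genotype. DESeq2 called Actr3 and Arpc5 in controls and Actr3b in Casp2-depleted CMs, all of the Arp2/3 complex. limma-voom called Actr3 in controls, and Actr3b and the coronin Coro2b in Casp2-depleted CMs. Non-sarcomeric myosins gave 1 and 1 of 17, formins 1 and 2 of 15, and severing proteins 1 and 1 of 19. Capping proteins and tropomodulins gave 1 and 1 of 15, and nucleation-promoting factors 0 and 2 of 25.

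**Figure D5:**
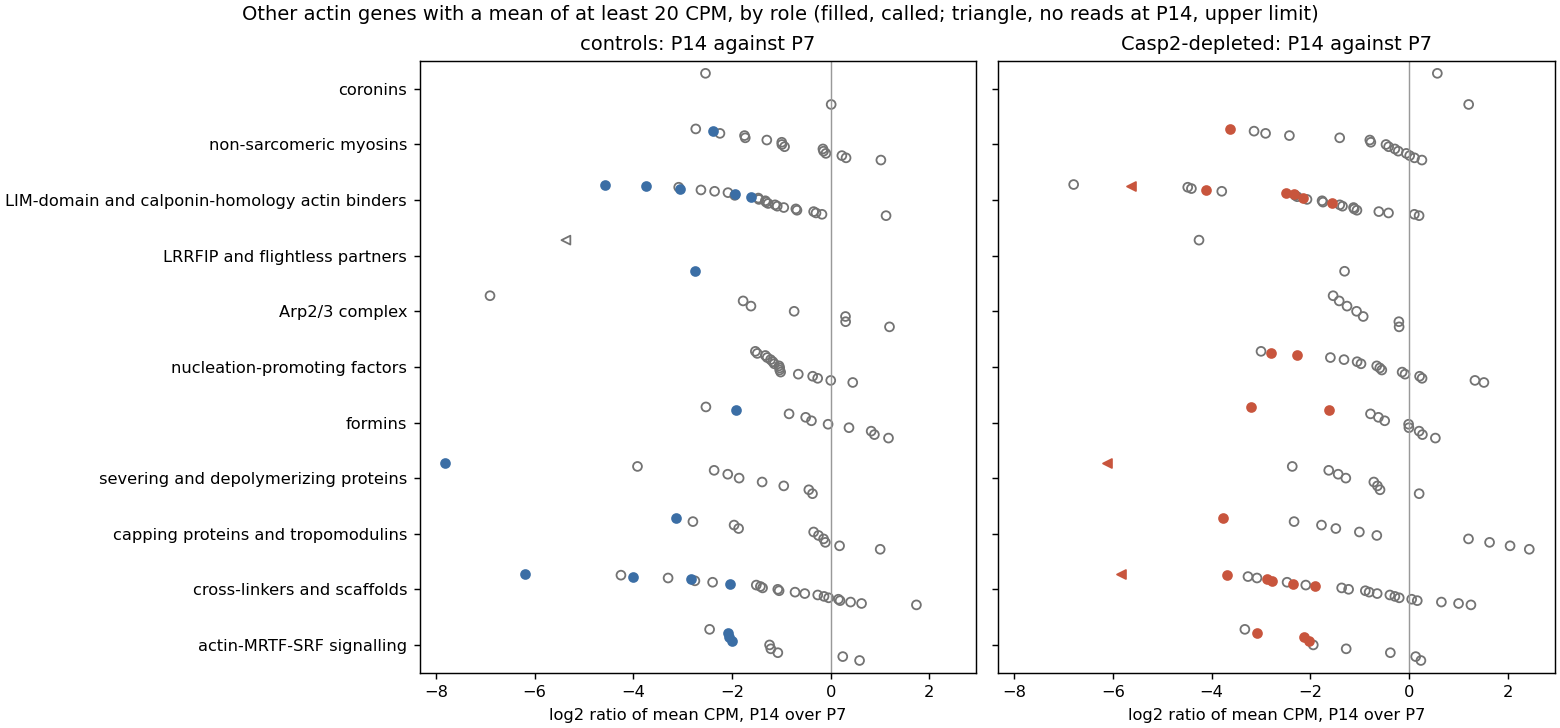
log2 ratio of mean CPM at P14 over P7 (x axis) for the other actin genes with a mean of at least 20 CPM, by role (rows), in controls (left) and Casp2-depleted CMs (right); each point is a gene, filled where called by edgeR, and triangles are genes without reads at P14, placed at the limit that 3 reads allow. Of 127 genes, 104 in controls and 101 in Casp2-depleted CMs have a ratio below 0, and the 17 and 22 filled points all lie there.

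Among the called genes with the largest fitted falls in controls were Wdr1, which helps cofilin take filaments apart, the cross-linker Actn4, the Z-disc scaffold Pdlim5 and Ehbp1l1. Wdr1 went from a mean of 56.3 to 0.250 CPM in controls (edgeR adjusted p = 0.0313) and had 42.9 and 26.1 CPM in Casp2-depleted CMs without a call. Actn4 went from a mean of 138 CPM to 1.89 (73.1-fold lower, edgeR adjusted p = 0.000552). Pdlim5 went from 259.7 to 16.2 CPM (16.02-fold, adjusted p = 0.000118 by edgeR). Ehbp1l1 went down from 296 CPM by 13.5-fold (adjusted p = 0.000429 by edgeR). In Casp2-depleted CMs the largest were Cfl2, the muscle cofilin, the tropomyosin Tpm3 and Csrp3, a LIM protein of the Z-disc, which all had 0 reads at P14. Against the floor of 3 reads over the group they were at least 69.7-fold, 56.9-fold and 49.8-fold lower than at P7. A fit that blocked on replicate number lost the call of Tpm3 (edgeR adjusted p = 0.0958). Ehbp1l1 (17.4-fold lower) and the adducin Add3 (13.7-fold) followed. Against P1, controls had 2 called genes, Pdlim5 (8.27-fold lower) and the tropomyosin-binding Cald1 (caldesmon, 5.53-fold lower, edgeR adjusted p = 0.000375). These 2 are 1.08% of 186, beside 0.314% of all genes. Casp2-depleted CMs had 18 (9.68% of 186, beside 1.92% of all genes), and Csrp3, Cfl2, Tpm3, Add3 and Actn4 had the largest fitted falls. Among genes with a mean of at least 20 CPM the shares were 1.57% and 14.2% of 127, beside 0.763% and 4.67% of 8391. Csrp3, Cfl2 and Tpm3 were at least 80.6-fold, 62.6-fold and 48.1-fold lower than at P1, and Add3 and Actn4 were 15.1-fold and 14.4-fold lower. With the replicate block 13 of the 18 were called, and the calls of Cfl2, Tpm3 and Actn4 were lost (edgeR adjusted p = 0.0757, 0.150 and 0.0603).

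Whether the change of these genes differed between genotypes was asked by the interaction, which called 0 of 186 (unadjusted p below 0.05 for 8.60%, beside 9.76% of all tested genes, and 2 called by DESeq2).

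Of the close relatives of the 5 genes, Myo18a, the non-muscle paralogue of Myo18b, fell from a mean of 1874 to 359 CPM in controls (5.21-fold, edgeR adjusted p = 0.000113) and from 1485 to 120.1 CPM in Casp2-depleted CMs (12.4-fold). Lrrfip2, which also binds Flightless-1, fell in controls from 258 to 38.4 CPM (6.72-fold, edgeR adjusted p = 0.0277). In Casp2-depleted CMs it had 148.8 and 60.1 CPM and was not called. Flii, which encodes Flightless-1, had 30.4 CPM at P7 and 0 reads at P14 in controls, and 31.4 and 1.65 CPM in Casp2-depleted CMs. edgeR called neither difference, but DESeq2 and limma-voom called Flii in controls. Lima1, a LIM protein that bundles filaments, had 213 and 77.2 CPM in controls without a call. The tested coronins Coro1c, Coro2a, Coro2b and Coro7 had means of 8.94, 40.1, 6.94 and 36.7 CPM at P7 in controls and 22.01, 6.92, 0.489 and 36.9 CPM at P14. None was called by edgeR, and limma-voom called Coro2b in Casp2-depleted CMs.

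Genes called in both genotypes numbered 11, which is 64.7% of the 17 and 11 of the 22. They were Ablim1, Actn4, Cald1, Daam1, Ehbp1l1, Ldb3, Myo18a, Ppp1r12a, Ppp1r12b, Rock1 and Sptbn1, named here after their values were seen. The genotypes had separate libraries, but all kept libraries entered 1 fit with a shared spread, so their calls are not independent. The overlap among all called genes of the whole table is not given here. With the replicate block Actn4 and Ldb3 were no longer called in Casp2-depleted CMs (edgeR adjusted p = 0.0660 and 0.0527). Rock1 and the Ppp1r12 subunits set myosin light-chain phosphorylation, Daam1 is a formin and Sptbn1 a spectrin. The counts rested on libraries and scaling. With all 24 libraries 0 genes were called lower in controls and 5 in Casp2-depleted CMs, and with the percentage of reads outside genes as a covariate 1 (Cald1) and 5 (Cald1, Daam1, Enah, Ppp1r12a and Sptbn1). Leaving out 1 library lowered the control count to 8 (without P14 control replicate 2), 9 (P14 control replicate 4 or P7 control replicate 2), 10 (P7 control replicate 1) or 11 (P1 Casp2-depleted replicate 1). The Casp2-depleted count became 11 without P14 Casp2-depleted replicate 4, 12 without P7 Casp2-depleted replicate 1 and 14 without P14 Casp2-depleted replicate 3.

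The other actin genes gave 0 calls from P1 to P7 in either genotype by edgeR. Unadjusted p-values were below 0.05 for 24 of 186 in controls and 10 of 186 in Casp2-depleted CMs (12.9% and 5.38%, beside 6.67% and 7.40% of all tested genes), and DESeq2 called 1 and 0. Between genotypes edgeR called 0 on each day, with 6, 1 and 26 unadjusted p-values below 0.05 at P1, P7 and P14. These are 3.23%, 0.538% and 14.0% of 186, beside 7.34%, 4.22% and 12.8% of all tested genes. DESeq2 called 1, 0 and 9, and limma-voom 0, 0 and 2.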

How the data were processed

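Nuclear RNA of 24 pools was read by 3′ sequencing, and the authors deposited raw counts per gene. Per their notes and methods they used cutadapt 4.0, STAR 2.6.1e, GRCm39 and HTSeq 2.0.3 over whole genes, and FastQC 0.11.8. The strand setting and molecular identifiers were not given in the sources used here. The 3 libraries that the study set aside were left out. Reads outside genes did not enter the totals. A gene needed 10 reads over the libraries and had to be seen in 3 or more of them.

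One mean per group was fitted with edgeR 4.0.16 (R 4.3.3, TMM factors, robust quasi-likelihood test, Benjamini-Hochberg over 20368 genes), with calls at an adjusted p below 0.05 and a log2 change beyond 1. The code was tested on simulated counts with less spread between libraries than these data have, so that test does not cover calls at the spread seen here. Fits without the filter, with other size factors, thinned reads, DESeq2 1.42.0, limma 3.58.1 (voom), a covariate, all 24 libraries or 1 library left out were alternatives. Levels without composition factors and the reads of the 3 set-aside libraries were added after seeing the data. P-values measure the spread between pools. Replicate pairs differed beyond counting noise (chi-square per degree of freedom at least 17.8).

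The deposited file names give the replicate numbers as batches. Whether same-numbered pools of both genotypes were handled as pairs is not stated in the sources used here. Deviations of same-numbered libraries correlated at -0.06 to 0.19 over 9 pairs, above 0.1 in 1. The sources used here do not give the study's model formula. The fit without a block is the main one, and the block is an alternative.

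Symbols came from GENCODE vM39 (56236 of 56923 identifiers) and promoters from RefSeq (GRCm38.p6). The named genes are the 5, Casp2, their relatives (coronins, Lrrfip2, Flii, Myo18a, Lima1), the 5 called actin genes with the largest fall and rise per comparison, the 10 genes closest to the mean profile and the 3 closest to each gene, and 1 gene that this rule names is not reported here. The 5 genes and all lists were chosen with earlier results of these data known.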

Additional observations from a re-analysis of the deposited data

Results flagged for a closer look

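Among the 15 sets of 4 libraries of the 5 genes, 1 held a library far from the other three. The highest Lmo7 level in P7 controls, 6531 CPM, lay apart from the next, 4216 CPM, by 92.7% of the group's range. By chance about 1 in 20 such sets would hold one.

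The 3 libraries left out for low quality held reads of the 5 genes above the highest kept control library of the same day, all as CPM of reads on genes with no TMM factor. P14 control replicate 3 had 1304 for Lmo7 (highest kept P14 control 789), 1043 for Lrrfip1 (614), 997 for Myo18b (188) and 1388 for Limch1 (1172). P14 Casp2-depleted replicate 1 had 826 for Lmo7, 711 for Lrrfip1, 491 for Myo18b and 97.8 for Coro6, where the control maxima were the same for the first 3 genes and 0 for Coro6. P1 control replicate 1 had 2776 for Lrrfip1 (2391) and 192 for Coro6 (81.0). These libraries had 2049, 4285 and 11707 genes with a read, in that order.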

How the results depend on the processing

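The fall of Lmo7, Lrrfip1 and Myo18b from P7 to P14, for which they were chosen, kept its direction under all alternatives run. No difference that changed sign was called. With limma-voom the log2 fall in controls and Casp2-depleted CMs was -3.23 (SE 2.28) and -4.06 (SE 3.19) for Lmo7. For Lrrfip1 it was -3.34 (SE 1.78) and -4.39 (SE 2.36). The edgeR SEs were 0.42 and 0.43 for Lmo7 and 0.43 and 0.45 for Lrrfip1. Myo18b also had larger SEs with limma-voom than with edgeR, and Coro6 and Limch1 had smaller ones. With the replicate block 0 of the 5 genes were called in the tested comparisons, as without it. Of the other actin genes called lower from P7 to P14, 16 of 17 were still called in controls and 5 were added (21), and 18 of 22 in Casp2-depleted CMs. From P1 to P14, 2 of 2 and 13 of 18 were still called. The block changed no call in the other comparisons, and the uncalled Limch1 differences became -0.23 at P1 and 0.22 in the interaction. Calls of the 5 genes moved from 0 to 1 with DESeq2 (P7 against P1, controls) and with all 24 libraries (genotype at P14, Coro6, which rested on 141 reads of a left-out library); with all 24, 2 of the genes had P14 below P7 throughout. For the other actin genes, P14 against P7 in controls gave 0 with all 24, 11 without the filter, with RLE factors or thinned, 10 with limma-voom and 1 with the covariate. In Casp2-depleted CMs it gave 5, 9 and 5 with all 24, limma-voom and the covariate. P14 against P1 gave 0, 1, 9 and 1 in controls (all 24, no filter, DESeq2, limma-voom) and 0, 30, 9 and 5 in Casp2-depleted CMs (all 24, DESeq2, limma-voom, covariate). DESeq2 called 1 at P7 against P1 in controls, 1 and 9 between genotypes at P1 and P14 and 2 in the interaction, limma-voom 2 at P14, and the covariate fit 1 at P7 against P1 in Casp2-depleted CMs. Uncalled genotype differences changed sign. At P1 the covariate gave -0.53 for Lmo7, -0.30 for Lrrfip1, -0.17 for Myo18b, -0.77 for Coro6 and -0.13 for Limch1, all 24 gave -0.13 for Coro6, and limma-voom gave -0.042 for Limch1. Myo18b at P7 was 0.019 with all 24, 0.018 without the filter, 0.011 with limma-voom, 0.048 thinned and 0.15 with the covariate. Myo18b at P14 was 0.046 with RLE factors, 0.045 with DESeq2, 0.29 with limma-voom, 0.032 thinned and 0.18 with the covariate. In the interaction Myo18b was 0.063 with RLE factors, 0.062 with DESeq2, 0.28 with limma-voom and 0.029 with the covariate, and Limch1 was 0.012 with RLE factors and with DESeq2. The cause was not tested.

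Leaving out 1 library each, the other actin genes called ranged from 8 to 22 and 11 to 27 (P14 against P7, controls and Casp2-depleted), 0 to 5 and 8 to 23 (P14 against P1), 0 to 2 (P7 against P1, Casp2-depleted), 0 to 3 (genotype at P14) and 0 to 1 (interaction). The 5 genes called at P7 against P1 in Casp2-depleted CMs ranged from 0 to 1. Genotype differences ranged at P1 from -0.69 to 0.70 for Lmo7, -0.29 to 0.65 for Lrrfip1, -0.33 to 0.42 for Myo18b, -0.68 to 2.08 for Coro6 and -0.30 to 0.35 for Limch1. At P7 they ranged from -0.061 to 0.24 for Lrrfip1 and -0.19 to 0.19 for Myo18b, and at P14 from -0.49 to 1.01 for Myo18b. The interaction ranged from -0.48 to 1.01 for Myo18b and -0.33 to 0.22 for Limch1. At P14 depth, Coro6 and Casp2 had 0 reads in the kept libraries and gave no genotype comparison.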
